A study of Mus musculus with 6 samples.

Results

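The Btg, Tob and Gadd45 genes and the cyclin gene Ccng2 are known for restraining cell growth, and 9 of them were listed by name: Btg1, Btg2, Btg3, Tob1, Tob2, Gadd45a, Gadd45b, Gadd45g and Ccng2. Members were the rows that the platform annotation gives to exactly 1 of these symbols, which left 7 of the 9 genes, of 22180 genes measured in all. The rows of Btg3 and Gadd45a carry a second symbol each, so their values belong to no single gene and are not reported. Each of the 7 genes has 1 transcript cluster, the probe set that an Affymetrix Mouse Gene 2.0 ST array reads for a gene. The samples were mouse myeloid cells from fetal liver, all kept in GM-CSF at 1 ng/ml, a cytokine that supports granulocyte and macrophage growth. There were 3 uninduced samples, with doxycycline at 0 ng/ml, and 3 induced ones that had received it at 1000 ng/ml. The treatment time was 72 hours in both groups. PU.1, an ETS-family regulator of myeloid genes encoded by Spi1, is what the labels say the induced cells expressed. The labels do not describe the construct, the strain or the age of the animals. All samples lacked a doxycycline-only counterpart, so an effect of the drug and one of PU.1 cannot be told apart. The series title speaks of PU.1 and exit from the cell cycle, and the comparison here asks how these antiproliferative genes differ between induced and uninduced cells.

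Proteins of the BTG and TOB family share a BTG domain that binds the catalytic subunits of the CCR4-NOT complex, which shortens poly(A) tails of messenger RNAs, and they slow proliferation when overexpressed. The GADD45 proteins are small stress-induced proteins that bind PCNA, p21, CDK1 and the kinase MAP3K4, which feeds the p38 and JNK pathways; Gadd45b was first described as a primary response gene of myeloid differentiation. Cyclin G2, the product of Ccng2, is an unconventional cyclin that is high in resting cells and is a known target of FOXO factors.

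The labels were checked on a few genes, against a range of background set by the 95th percentile of 1394 olfactory and vomeronasal receptor genes. This limit lay at 7.37, 7.05 and 7.34 on uninduced A, B and C, and at 7.39, 7.99 and 7.85 on induced A, B and C. Spi1 itself was at 8.76 ± 0.10 and 9.07 ± 0.05 (SD, n = 3 each; limma adjusted p = 0.152), and whether its transcript cluster reads the engineered gene is not known here. E2f1, named in the series title, was at 8.96 ± 0.23 and 8.62 ± 0.14 (limma adjusted p = 0.179). Both depended on the scaling: the change of Spi1 was 0.31 as deposited, 0.17 after median centring and 0.67 (adjusted p = 0.0915) after cyclic loess, and that of E2f1 was -0.33 as deposited and 0.01 after cyclic loess. Of 12 myeloid markers 9 were above the range of background on all 6 arrays, among them Itgam, Lyz2 and Elane, but Csf1r and Ptprc were within it on all 6. Of these 12, 4 passed as higher and 0 as lower, while changes were above 0 for 8 and below 0 for 4. Lyz2, Cd68 and Mpo passed, Mpo from uninduced values that were all in the range of background. Ptprc passed too (limma adjusted p = 0.0106), but its signal was in the range of background, so the size of its difference is uncertain and no fold is given. Those below 0 were Cebpa (-0.40), Cd33 (-0.29), Fcgr3 (-0.25) and Csf2rb (-0.09). The 12 had a summed level of 14.34 to 14.45 in uninduced and 14.65 to 14.70 in induced samples. This sum was taken on unlogged values, so the brightest genes weigh most in it. The median change of the 12 was 0.17. Of 42 measured markers of erythroid cells, hepatocytes, mast cells and basophils, megakaryocytes, lymphocytes, and fibroblasts and endothelium, 0 passed the limma test (9 at an unadjusted p under 0.05), and 35 were in the range of background on all 6 arrays. Tfrc (change of -0.36), Pecam1 (-0.29) and Kit (0.00) were above it on all 6. Mcpt8, named like these after its values were seen, had a change of -0.91 (SE 0.21, limma adjusted p = 0.0666) with no overlap between groups. Array induced A correlated at 0.991 with uninduced A, above every pair within a group (0.973 to 0.988). No label says whether replicates were grown separately, so p-values here rest on a spread between arrays that could be technical. In such bulk RNA, fewer cells of a type and less RNA per cell cannot be told apart.

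Of the 7 genes, Tob1 fell in induced cells and no other passed the test (limma, adjusted p under 0.05 over 22180 genes). Over all genes, 1.05% were called lower and 0.374% higher, so 1 lower and 0 higher of 7 stands beside these shares. At an unadjusted p under 0.05 there were 2 members, Tob1 and Ccng2, both lower, beside 28.3% of all genes in either direction. The 3 induced values lay below all 3 uninduced ones for these same 2 genes, against 15.4% of all genes. The values of the other 5 overlapped between groups. The median change of the 7 was -0.20 on the log2 scale, and that of all genes 0.06. But 6 of the 7 were above the range of background, and the median change of genes with a mean above it was -0.31. After median centring the medians of the 7 and of all genes were -0.34 and -0.08.

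**Figure D1:**
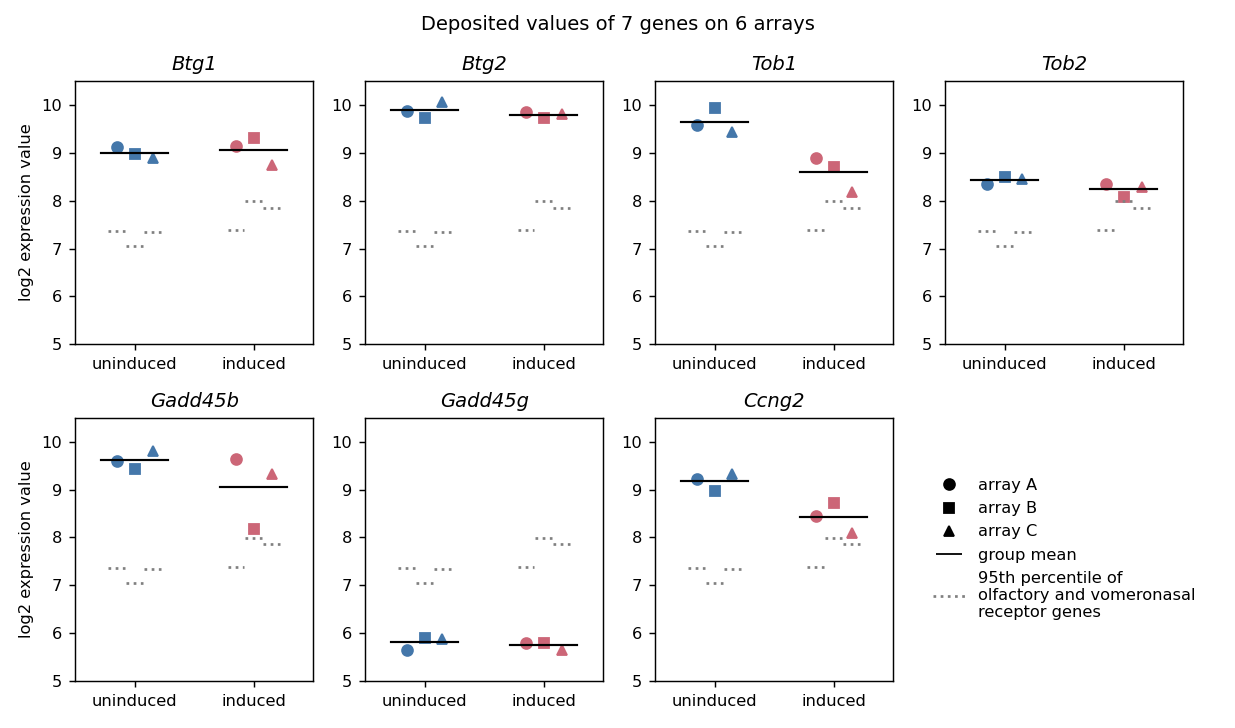
Log2 expression values as deposited (vertical axis) of the 7 genes in 3 uninduced (blue) and 3 induced (red) samples; marker shapes give the array letter, black bars the group means (n = 3), and dotted lines each array's 95th percentile of olfactory and vomeronasal receptor genes. All induced values of Tob1 and Ccng2 lie under the uninduced ones. Gadd45b is far under its uninduced values on induced B, at 8.17, and slightly under them on induced C, at 9.33.

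The promoter windows of the members are shown for the gene that passed the test, for its relative that did not, for Ccng2, and for Btg2, whose window holds a CRE. They are the 250 bases before the start in RefSeq on GRCm38.p6, 5′ to 3′ along the gene, with matches to the motifs searched in capitals. The window of Tob1 lies at chr11:94211204-94211453 on the plus strand, inside the annotated span of the gene, which begins upstream of it. Those of the other genes lie for Tob2 at chr15:81858327-81858576 on the minus strand, Ccng2 at chr5:93267323-93267572 on the plus strand and Btg2 at chr1:134079156-134079405 on the minus strand.
Tob1: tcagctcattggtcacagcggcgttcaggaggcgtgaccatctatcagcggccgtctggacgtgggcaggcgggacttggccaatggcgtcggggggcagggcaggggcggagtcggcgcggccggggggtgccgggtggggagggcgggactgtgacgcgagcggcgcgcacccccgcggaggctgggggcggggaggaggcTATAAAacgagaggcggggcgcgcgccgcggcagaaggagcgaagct
Tob2: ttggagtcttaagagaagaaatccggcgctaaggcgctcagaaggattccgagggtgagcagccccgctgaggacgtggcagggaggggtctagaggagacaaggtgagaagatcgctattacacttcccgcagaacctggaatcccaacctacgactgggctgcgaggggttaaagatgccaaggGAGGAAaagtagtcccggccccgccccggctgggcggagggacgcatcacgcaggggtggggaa
Ccng2: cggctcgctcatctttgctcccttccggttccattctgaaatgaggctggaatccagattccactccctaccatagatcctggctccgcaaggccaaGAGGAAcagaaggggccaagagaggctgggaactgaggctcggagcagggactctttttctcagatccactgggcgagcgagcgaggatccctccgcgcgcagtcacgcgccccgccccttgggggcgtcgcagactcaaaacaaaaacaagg
Btg2: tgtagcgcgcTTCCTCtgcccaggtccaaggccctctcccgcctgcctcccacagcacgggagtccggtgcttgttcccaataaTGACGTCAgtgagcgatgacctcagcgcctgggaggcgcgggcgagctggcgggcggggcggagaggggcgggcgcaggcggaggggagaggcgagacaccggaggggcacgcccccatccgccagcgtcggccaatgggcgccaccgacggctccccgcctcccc

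Windows of all 7 genes, with 50 further bases after the start, were searched on both strands for an ETS core of the PU.1 type (GAGGAA, and its longer form GAGGAAGT), FOXO (TGTTTAC), CRE (TGACGTCA), E2F (TTTCCCGC or TTTGGCGC), NF-kB (GGACTTTCC) and TATA box (TATAAA) letters. The longer ETS form contains the core. The core was present in the windows of Tob2, Ccng2 and Btg2, at 64 and 153 bases before the start on the gene's strand in Tob2 and Ccng2, and at 240 bases before it on the opposite strand in Btg2. It is held by 28.3% of 32851 windows of this length, so 3 of 7 genes is a description only. None of the 7 windows held the longer form (3.2% of windows) or an E2F match (1.07% and 0.514%). A TATA box stood in the windows of Tob1, Btg1, Gadd45b and Gadd45g, at 47, 26, 46 and 27 bases before the start, against 13.6% of all windows. Btg1 held the FOXO letters 204 bases before its start (3.65% of windows), and Ccng2 held none in this window. Btg2 held the CRE 166 bases before its start (1.79% of windows) and the NF-kB letters on the opposite strand, with their first base at 26 after it (0.344% of windows). A match of letters is no evidence that a factor binds there.

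Tob1 (chromosome 11, 94209842 to 94215495 in GRCm38, the mm10 assembly) encodes a member of the TOB branch that links CCR4-NOT to messages and restrains growth of several cell types. Its log2 values were 9.58, 9.94 and 9.44 in uninduced samples A to C, then 8.89, 8.70 and 8.18 in induced A, B and C. All 3 induced values were lower than the lowest uninduced one, with a gap of 0.55 between the groups, and induced C was the lowest. The mean went from 9.65 ± 0.25 to 8.59 ± 0.37 (SD, n = 3 each), a change of -1.06 (SE 0.20, limma adjusted p = 0.0289), which is 2.09-fold lower. Its 95% interval, unadjusted like all intervals given here, was -1.51 to -0.62. By an exact permutation test over the 6 arrays, two-sided, p was 0.1, the smallest that 3 against 3 arrays can give.

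The call of Tob1 depended on the scaling and on single arrays, while its direction did not under any setting tried. The change was -0.85 (adjusted p = 0.0619) after quantile normalization, -1.21 (adjusted p = 0.068) after median centring and -0.70 (adjusted p = 0.0811) after cyclic loess, which removes shifts that vary with level. After cyclic loess the groups were still apart, with uninduced values of 9.35 to 9.56 and induced values of 8.45 to 9.02. Without uninduced A, uninduced B, induced B or induced C the call was lost, at changes between -1.12 and -0.86 and adjusted p-values between 0.0784 and 0.119. Without uninduced C or induced A it held, at adjusted p = 0.0445 and 0.00652.

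Tob2 (chromosome 15, 81848270 to 81858326), the close relative of Tob1 with the same BTG domain, whose window above holds an ETS core and no TATA box, was at 8.35, 8.49 and 8.46 for uninduced A, B and C, then at 8.35, 8.07 and 8.28 in induced A, B and C. Induced A lay within the uninduced values, and induced B was the lowest. The change was -0.20 (SE 0.13, limma adjusted p = 0.302; 95% interval from -0.49 to 0.09), and it was 0.09 after cyclic loess. The difference between the 2 genes within an array, Tob1 minus Tob2, was 1.24, 1.45 and 0.98 over the uninduced arrays (A to C), against 0.54, 0.63 and -0.11 over the induced ones. This pair was set side by side with both changes known, so the difference is a description with no test.

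Ccng2 (chromosome 5, 93267573 to 93276231), the cyclin gene of resting cells, was at 9.22, 8.97 and 9.33 in uninduced A, B and C. It was at 8.46, 8.72 and 8.09 in the induced samples, all lower than the uninduced ones by a gap of 0.25. The change was -0.75 (SE 0.18), or 1.68-fold in the lower direction (95% interval from -1.14 to -0.36), and it did not pass over all genes (limma adjusted p = 0.0688). Leaving out induced A took it past the threshold (-0.77, adjusted p = 0.0236). After cyclic loess the groups overlapped, with induced B at 9.02 and uninduced B at 8.60, and the change was -0.41 (adjusted p = 0.364).

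Btg1 and Btg2, the founding pair of the family, whose products bind CCR4-NOT and the arginine methyltransferase PRMT1, were close to level. Btg1 (chromosome 10, 96617001 to 96622813) was at 9.13, 8.98 and 8.89 for uninduced A to C, and at 9.15, 9.32 and 8.74 in induced A, B and C. Both the highest and the lowest of its 6 values came from induced samples. Its change of 0.07 (SE 0.16, limma adjusted p = 0.764) had a 95% interval from -0.30 to 0.43, which leaves room for a rise or fall of that size. Its sign depended on the scaling, at -0.07 after median centring and 0.43 after cyclic loess. Btg2 (chromosome 1, 134074865 to 134079155), a p53-inducible member, was at 9.88, 9.74 and 10.06 in uninduced and at 9.85, 9.73 and 9.80 in induced A, B and C. Its induced values spanned less than its uninduced ones and overlapped them. The change was -0.09 (SE 0.13, limma adjusted p = 0.607; 95% interval from -0.39 to 0.20), and 0.27 after cyclic loess.

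**Figure D2:**
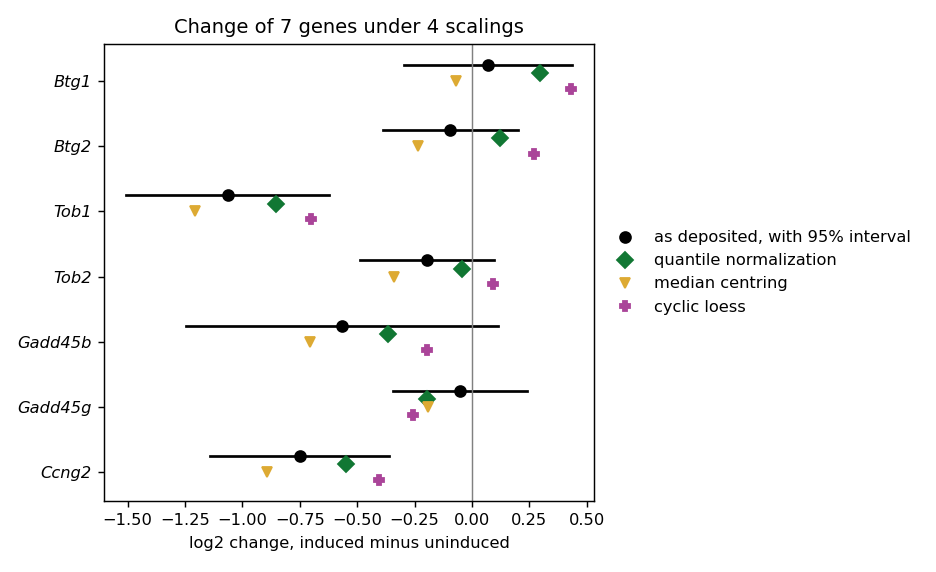
Log2 change, induced minus uninduced (horizontal axis), of the 7 genes under 4 scalings: the values as deposited (black, with the unadjusted 95% interval), quantile normalization, median centring and cyclic loess. Tob1, Ccng2 and Gadd45b stay below 0 under each, whereas the points of Btg1, Btg2 and Tob2 fall on both sides of it; Gadd45g is in the range of background, so its points carry no direction.

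Gadd45b (chromosome 10, 80930091 to 80932204), an adaptor of stress kinases that NF-kB and TGF-beta signals induce, differed among the induced samples more than between groups. It was at 9.59, 9.43 and 9.81 in the uninduced arrays A to C, and at 9.64, 8.17 and 9.33 in induced A, B and C. Induced A lay among the uninduced values, induced C slightly under them, and induced B far under both. The change of -0.57 (SE 0.31, limma adjusted p = 0.229; 95% interval from -1.24 to 0.11) was -0.13 (adjusted p = 0.664) without induced B and -0.86 (adjusted p = 0.047) without induced A. Without induced A, 1998 genes were called higher and 3535 lower over all genes. On the same induced B array the AP-1 gene Fosb, set beside it with its values known, was at 12.16. Fosb was at 10.22 on each of the other 2 induced arrays, and at 11.00, 11.91 and 11.12 in uninduced A, B and C. The part of this array in the value of Gadd45b was not tested further.

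Gadd45g (chromosome 13, 51846675 to 51848475), a relative that restrains growth in several lineages, was not above the range of background in either group. Gadd45g was at 5.64, 5.90 and 5.87 on uninduced A, B and C, against 5.80, 5.80 and 5.66 in induced A, B and C. A difference in its transcript is not measurable at this signal, so its change of -0.05 (SE 0.13, limma adjusted p = 0.777) gives no fold. The other 6 genes were above that range on all 6 arrays.

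**Figure D3:**
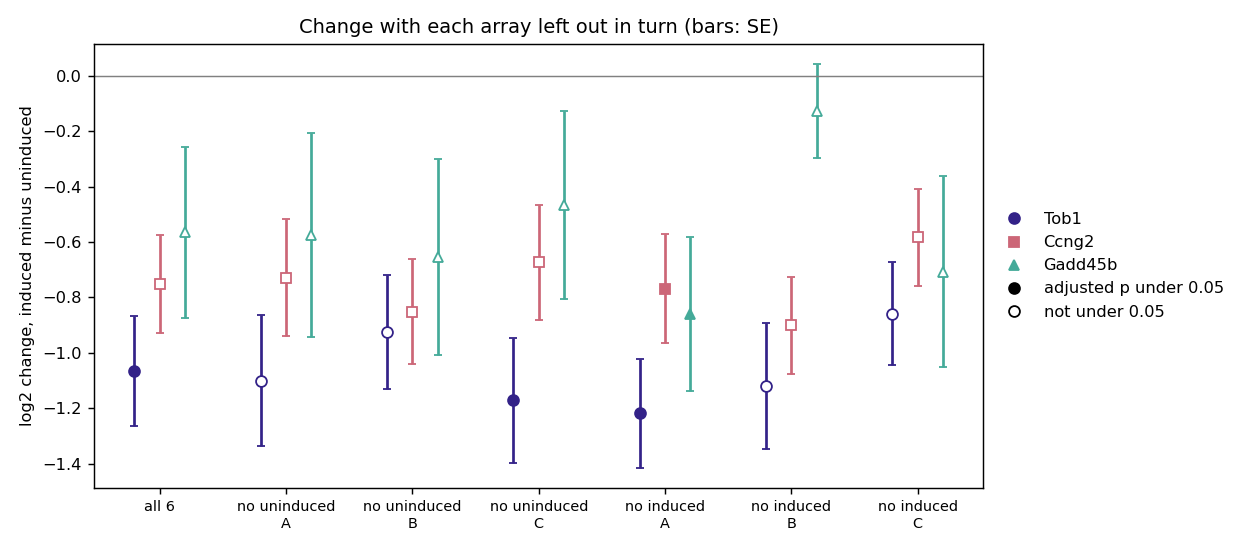
Log2 change, induced minus uninduced (vertical axis, with SE), of Tob1, Ccng2 and Gadd45b over all 6 arrays and with each array left out; filled markers have a limma adjusted p under 0.05 over all genes. Tob1 stays between -1.22 and -0.86, and Gadd45b moves to -0.13 without induced B.

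The deposited values shifted with level, and 6 of the 7 genes lay where the shift was downward. The 8260 genes with a mean above the range of background had a median change of -0.31, and 84.8% of them were below 0. Among these brighter genes 2.42% were called lower, and the 3 induced values lay below all 3 uninduced ones for 33.6%, beside 2 of the 6 brighter members. In bins 0.5 wide on the log2 scale, the median change was -0.37 in the bins from 8.5 and 9.0, which hold Ccng2, Tob1, Btg1 and Gadd45b. It was also -0.37 in the bin from 9.5, which holds Btg2, and -0.32 in that from 8.0, which holds Tob2. Tob1 and Ccng2 were thus lower than the typical gene of their level, Btg1 and Btg2 were higher than it, and Gadd45b and Tob2 differed from it by less than their SE. Whether the shift comes from the cells or from the arrays was not tested.

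**Figure D4:**
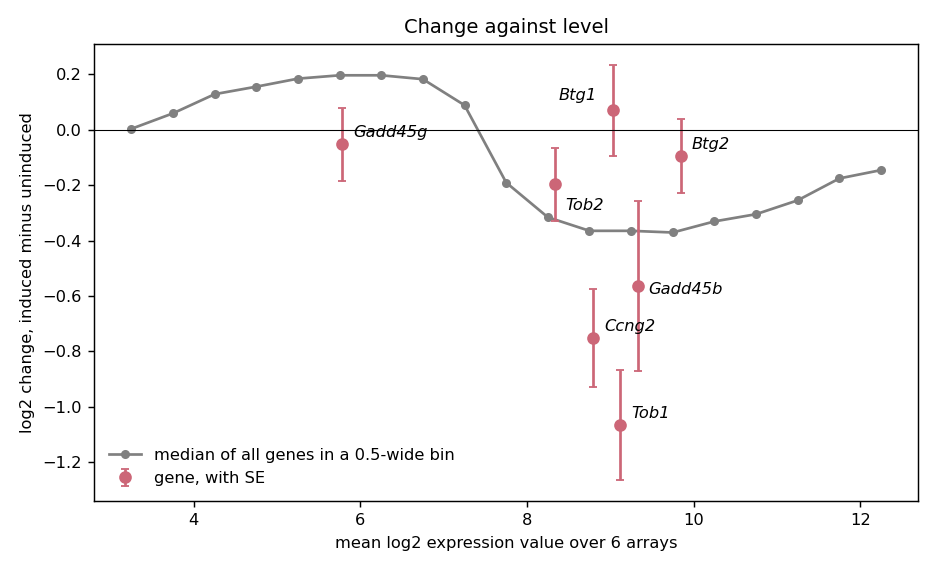
Log2 change, induced minus uninduced (vertical axis), against the mean log2 value over 6 arrays (horizontal axis): the grey line joins medians of all genes in bins 0.5 wide that hold at least 50 genes, and red points are the 7 genes with their SE. Tob1 at -1.06 and Ccng2 at -0.75 lie under the grey line, and Btg1 at 0.07 and Btg2 at -0.09 lie over it.

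Genes of the deadenylation machinery that BTG and TOB proteins bind gave no call. Of 17 listed genes of CCR4-NOT and other poly(A) tail factors, including Prmt1, 15 were measured and 0 passed the limma test (7 lower and 0 higher at an unadjusted p under 0.05). All 15 changes were below 0 as deposited, with a median of -0.35, but 6 of 15 after cyclic loess, with a median of 0.01. Over all genes 28.3% had an unadjusted limma p under 0.05 in either direction. That share counts both directions and dim genes, so no like-for-like share is given for the lower counts of these lists. Of the genes above the range of background 84.8% had a change below 0. These shares stand beside the counts of the lists that follow as well. The brightest, Cnot9 and Cnot2, had changes of -0.30 (SE 0.16) and -0.29 (SE 0.14), which cyclic loess moved to 0.02 and 0.05. Cnot7 and Cnot8, the deadenylase subunits that BTG and TOB proteins bind, named for that role, were at -0.35 (SE 0.14) and -0.35 (SE 0.15); after cyclic loess they were at 0.01 and -0.15.

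Of 18 listed genes for GADD45 partners in stress kinase and G2 control, 15 were measured and 0 passed the limma test (6 lower and 0 higher at an unadjusted p under 0.05). Changes were below 0 for 14 as deposited (median -0.34) and for 10 after cyclic loess (median -0.14). The brightest, the replication clamp gene Pcna and the mitotic cyclin gene Ccnb2, had changes of -0.20 (SE 0.14) and -0.23 (SE 0.13), which cyclic loess moved to 0.04 and 0.05. Map3k4, the kinase that GADD45 proteins activate, named for that role, had uninduced values of 8.92, 9.30 and 8.79 and induced values of 8.57, 8.06 and 8.14. Its groups did not overlap, and its change was -0.75 (SE 0.18, limma adjusted p = 0.0728), or -0.42 (adjusted p = 0.128) after cyclic loess. Cdkn1a, the gene of the partner p21, is counted with the p53-induced genes.

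Genes linked to FOXO factors and to p53, which are known to act on Ccng2, Btg1 and Btg2, held 2 calls. Of 17 FOXO factors and FOXO-linked genes 0 passed the limma test (7 lower and 0 higher at an unadjusted p under 0.05). The median change was -0.41 as deposited and -0.21 after cyclic loess. Cited2 and Klf6, the brightest, were at -0.41 (SE 0.16) and -0.44 (SE 0.33). Cyclic loess moved them to -0.15 and -0.16. Of 17 listed genes of p53 and its targets 15 were measured, of which 2 passed the limma test as lower and 0 as higher. At an unadjusted p under 0.05 there were 5 lower and 0 higher, and 14 changes were below 0. Beside these 2 calls stand 1.05% of all genes and 2.42% of those above the range of background called lower. Ddit4, an inhibitor of mTORC1 that stress and low oxygen induce, was at 9.15, 9.28 and 9.04 in uninduced and at 7.55, 7.06 and 7.51 in induced A, B and C. It fell by 1.78 (SE 0.16, limma adjusted p = 0.000427), and by 1.51 (adjusted p = 0.0013) after cyclic loess. Cdkn1a, the gene of the CDK inhibitor p21, fell by 1.09 (SE 0.20, limma adjusted p = 0.0289), and its change was -0.78 (adjusted p = 0.143) after cyclic loess. Its call was also lost after quantile normalization (adjusted p = 0.0713) and median centring (adjusted p = 0.0546), and without any 1 of the uninduced arrays or induced C (changes of -1.15 to -0.86, adjusted p-values of 0.0779 to 0.126). The call of Ddit4 held under each scaling and without each array. The list's median was -0.37 as deposited and -0.18 after cyclic loess.

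Immediate early and NF-kB-induced genes, the class to which Btg2 and Gadd45b also belong, showed no call among 21 (limma; 1 higher and 2 lower at an unadjusted p under 0.05). Their median was -0.25 as deposited and 0.05 with cyclic loess, when 1 of them was called. That gene, Egr2, chosen after its values were seen, was at 0.65 (SE 0.14, adjusted p = 0.0555) as deposited, and passed after quantile normalization (adjusted p = 0.0419) and cyclic loess (adjusted p = 0.0161) but not after median centring (0.51, adjusted p = 0.125). The brightest, Fosb and Jun, were at -0.48 (SE 0.45) and 0.05 (SE 0.16). Cyclic loess moved them to -0.19 and 0.34, and median centring moved Jun to -0.09. The family's relatives outside the members did not pass either. The oocyte gene Btg4 was in the range of background on all 6 arrays. The cyclin genes Ccng1 and Ccni were at -0.34 (SE 0.17) and -0.38 (SE 0.15), Gadd45gip1 and the stress gene Ddit3 at -0.30 (SE 0.15) and -0.34 (SE 0.25). After cyclic loess these 4 were at -0.08, -0.07, 0.03 and -0.09. Ccng1 and Gadd45gip1 are counted in a second list as well.

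The genes whose profiles over the 6 arrays were most like those of Tob1 and Ccng2 were found by the root mean square difference between log2 values centred on each gene's mean, among 8260 genes above the range of background. For Tob1 these were Inhba, the activin A subunit gene, at 0.0662, Sccpdh at 0.072 and Mtss1 at 0.085. Their changes were -1.02, -0.99 and -1.13. For Ccng2 they were Anxa2, the annexin A2 gene, at 0.135, Plin2, which encodes a lipid droplet protein, at 0.144 and Dctn3, a dynactin subunit gene, at 0.147. Their changes were -0.65, -0.68 and -0.61. As these 6 genes were chosen for a profile like that of Tob1 or Ccng2, their changes follow from the choice and carry no test. The nearest profiles of Ccng2 were further from it than those of Tob1 were from Tob1.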

How the data were processed

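Total RNA from 6 samples was hybridised to Affymetrix Mouse Gene 2.0 ST arrays, 1 per sample. The authors deposited 1 log2 value for each of 41345 transcript clusters; per the submitters' processing notes they used Partek and mouse build mm10. The version and how background, normalization and summary were handled are not given here, and the log2 scale was read from the values. GEO's platform annotation gave 23521 clusters 1 symbol, 1814 several and 16010 none; of several clusters of a gene the brightest was used. Groups came from sample titles. The groups were tested over 22180 genes by limma (version 3.58.1, R 4.3.3; lmFit, eBayes, two-sided, no covariate, no filter), with Benjamini-Hochberg adjustment over all of them at 0.05; the script was checked on simulated data. Log2 changes are induced minus uninduced. Members, lists and tests were chosen with earlier results of these data known. Named genes were the members, Spi1, E2f1, list genes past the threshold or else the 2 brightest, all family relatives, and the nearest profiles; those named for a role or after their values were seen are marked. Alternatives were other scalings, filters, moderation, array weights, the letter as a block, other thresholds, other handling of clusters, and each array left out. The number of arrays limits the precision.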

Additional observations from a re-analysis of the deposited data

How the results depend on the processing

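The number of members called higher was 0 under every alternative tried, and that of members called lower, 1 as deposited, ranged from 0 to 3. It was 0 after quantile normalization, median centring or cyclic loess, at a threshold of 0.01 and with no moderation (where limma called 0 genes in all). It was 2, Tob1 and Ccng2, with a filter at the range of background, with the replicate block and at a threshold of 0.10, and 3, with Gadd45b, under array weights, which rest mostly on the C arrays (weights of 4.6 and 3.46). Leaving out 1 array gave 0 to 3, and 3 came without induced A. Over all genes, 83 higher and 232 lower became 46 and 153 after median centring, 83 and 118 after cyclic loess (26.3% against 41.3% higher), 76 and 379 with the filter at the range of background, 5825 and 5681 under array weights, 43 and 55 at 0.01, 245 and 682 at 0.10, and 0 and 0 with no moderation. Leaving out 1 array gave 45 to 1998 higher and 47 to 3535 lower, the highest of both without induced A. The sign turned for Btg1 after median centring (-0.072), under array weights (-0.086) and without induced B (-0.057; 0.23 without induced C), for Btg2 after quantile normalization (0.12) and cyclic loess (0.27), and for Tob2 after cyclic loess (0.091). The cause was not tested. With a 90th percentile as the limit of background the same 6 members were above it.

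With the letter as a replicate block 174 genes were higher and 425 lower, and Ccng2 passed (adjusted p = 0.0461). Same-lettered arrays deviated together only for C (r = 0.416, against -0.312 for A and -0.278 for B). Whether the letters pair the samples is not said by the labels. These r values cannot decide it, because deviations among so few arrays of a group depend on one another.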
